A study of Mus musculus with 24 samples.

Results

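The 9 genes described here had the largest falls of signal at night in the pineal gland of control mice among named genes whose pools did not overlap: Clca1, Rln1, Ppp2r2b, Wdr17, Dpp10, Cacnb2, Cntn4, Kif26b and Syndig1l. They are 9 of the 18193 genes that the platform annotation names by a single symbol, and 16 probe sets carry their symbols. The members were chosen from the control pineal arrays of these same data, so their night to day difference in control pineal gland is given as a description, with no test. What the choice did not use, and what was tested, are the day and night levels in the pineal glands of knockout mice, and all values in the retina. The difference between genotypes averaged over both times is another contrast than the one used. In the pineal gland it takes the same control arrays, so its calls on the 9 genes there are descriptions.

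The series measured RNA of pineal glands and retinas on Affymetrix Mouse 430 2.0 arrays. The mice were C57BL/6J, of both sexes and 2 months old, and lived in 12 h of light and 12 h of dark. Conditional knockout mice (cKO) carried NeuroD1 flox/flox alleles and 1 copy of Crx-Cre, a Cre recombinase driven by the promoter of Crx, a homeobox gene of photoreceptors and pinealocytes. Control mice carried the same floxed alleles and no Cre. Tissue was taken at ZT20, which is 20 h after lights on and at night, under dim red light, and at ZT6, by day. Every combination of tissue, genotype and time was represented by 3 arrays, 8 groups in all. Every array held the pooled RNA of 6 organs, so a p-value refers to pools and not to single mice. In the pineal fit the spread behind a p-value came mostly from the common trend over genes, and less from the gene's own pools.

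The pineal gland makes melatonin at night. Noradrenaline released from sympathetic fibres after dark raises cyclic AMP in pinealocytes and turns on transcripts such as that of Aanat, the N-acetyltransferase of melatonin synthesis, while other transcripts stand higher by day. Photoreceptors of the retina share much of the pinealocyte's gene set, including Crx and Neurod1, a basic helix-loop-helix transcription factor.

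Neurod1, the gene deleted, had signals of 22.5, 1896.7 and 960 units in cKO pineal glands at ZT20 and of 83.5, 29.1 and 30.9 units at ZT6. In control pineal glands it averaged 3622 ± 618 units at ZT20 and 4974 ± 312 units at ZT6 (SD, n = 3 pools each). The libraries labelled cKO at ZT20 thus held 2 pools, numbers 2 and 3, with part of the Neurod1 signal left, and the cKO ZT20 retinal pools with these numbers read 3595.4 and 3582.2 units. Results that rest on them are also given without them, which leaves 1 cKO ZT20 pool in a tissue, assumed to vary like the other groups. Tph1, the first enzyme of melatonin synthesis, read 11349.5 to 12566.3 units in the 12 pineal arrays and 57.9 to 350.8 units in the 12 retinal ones. Gnat1, the rod transducin, read 72.6 to 3829.6 units in the pineal pools, highest in cKO ZT6 pool 3 and control ZT6 pool 3, and 12190.9 to 15031.5 units in the retina. Array medians lay between 107.1 and 158.8 units in the pineal gland and between 107.8 and 183.1 units in the retina. Changes below are log2 differences of the signal plus 16 units, ± SE from limma, with 3 pools per group. "Passed" means an adjusted p under 0.05 over all genes tested in a tissue.

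RefSeq (build GRCm38.p6) promoter windows of 6 of the genes were searched, 11 windows in all. Any windows of members on 1 chromosome were left out of this search. That chromosome was kept in the count over all promoter windows. The 5 windows shown are those of Rln1, the member with the least signal in the retina, and 1 each of Wdr17, Dpp10, Cacnb2 and Cntn4 that held a searched motif. Each is the 250 bases before an annotated start, 5′ to 3′ on the gene's strand, with motif matches in capitals.

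Rln1, chr19:29334671-29334920, minus strand: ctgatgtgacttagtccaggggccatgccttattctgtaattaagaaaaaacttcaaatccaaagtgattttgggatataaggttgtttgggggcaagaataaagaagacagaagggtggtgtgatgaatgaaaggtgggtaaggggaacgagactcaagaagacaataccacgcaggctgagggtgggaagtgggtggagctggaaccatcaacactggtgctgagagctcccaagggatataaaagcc

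Wdr17, chr8:54724369-54724618, minus strand: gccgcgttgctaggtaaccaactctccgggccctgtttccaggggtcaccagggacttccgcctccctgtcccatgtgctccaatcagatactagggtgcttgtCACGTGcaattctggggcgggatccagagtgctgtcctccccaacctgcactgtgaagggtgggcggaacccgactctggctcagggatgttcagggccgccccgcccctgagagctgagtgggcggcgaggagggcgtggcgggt

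Dpp10, chr1:124045560-124045809, minus strand: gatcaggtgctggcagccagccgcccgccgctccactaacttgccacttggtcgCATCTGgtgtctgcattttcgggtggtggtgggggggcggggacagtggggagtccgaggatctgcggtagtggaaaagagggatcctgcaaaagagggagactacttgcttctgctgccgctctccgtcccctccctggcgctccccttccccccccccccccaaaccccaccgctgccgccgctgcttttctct

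Cacnb2, chr2:14823842-14824091, plus strand: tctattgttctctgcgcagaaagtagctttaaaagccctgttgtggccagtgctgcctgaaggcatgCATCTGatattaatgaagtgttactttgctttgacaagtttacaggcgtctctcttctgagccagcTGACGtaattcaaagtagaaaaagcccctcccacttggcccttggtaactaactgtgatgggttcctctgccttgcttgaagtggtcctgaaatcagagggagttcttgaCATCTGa

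Cntn4, chr6:106118515-106118764, plus strand: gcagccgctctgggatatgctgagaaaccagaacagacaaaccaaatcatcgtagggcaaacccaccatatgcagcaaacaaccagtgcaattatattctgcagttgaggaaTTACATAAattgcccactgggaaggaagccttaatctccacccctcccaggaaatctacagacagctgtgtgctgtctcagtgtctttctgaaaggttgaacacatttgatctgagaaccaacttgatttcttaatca

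These windows were searched on both strands for 7 motifs, and a match is a description of letters, not a binding site. The E-box CACGTG, the element read by the clock factors CLOCK and BMAL1, stood in 1 of the 11 windows, that of Wdr17, and in 6.02% of 32851 promoter windows of the same length. TTATGTAA, a D-box of the PAR bZIP factors, stood in 1 window, of Cntn4, where it reads TTACATAA on the strand shown, and in 0.819% of all windows. The short cAMP response element TGACG, which is also part of the full element TGACGTCA, stood in the Cacnb2 window and in 17.8% of all windows, and the full element in 0 of the 11 and in 1.55% of all. CAGATG, an E-box form bound by NEUROD1, printed as CATCTG where it lies on the other strand, stood in 3 of the 11 windows, including those of Dpp10 and Cacnb2, and in 14.4% of all. The Crx-type homeobox site TAATCC stood in 1 window, another one of Wdr17, and in 6.25% of all, and the ROR element core TAGGTCA in 0 and 2.23%. No searched motif was thus shared by the 6 genes whose windows were searched, and the Rln1 window held none of the 7.

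The first question was whether the genes kept their day-high pattern in the pineal glands of cKO mice. All 9 fell at ZT20 in cKO pineal gland, with log2 changes of -1.34 to -2.82, and in each the 3 ZT20 pools lay below the 3 ZT6 pools. Kif26b met the filter mainly through control day pools, so its call is a description. With no filter the adjusted p of the 9 genes was 0.0168 or less (limma), and with no variance trend 0.0234 or less. Among all 11936 genes tested 8.53% fell in this comparison and 2.97% rose (1018 and 355 genes). After quantile normalisation 1155 fell and 1020 rose. In the deposited values the ZT20 pools lay wholly below the ZT6 pools in 17.9%. The median change of the 9 genes was -2.15, against -0.15 for all genes tested. Clca1 had the largest fall of all 11936 genes, and Ppp2r2b, Cacnb2, Cntn4 and Wdr17 ranked 3, 4, 5 and 7. Rln1, Syndig1l, Kif26b and Dpp10 ranked 14, 21, 28 and 32. In control pineal gland, where the genes were chosen, the falls ran from -1.53 for Syndig1l to -2.18 for Clca1, with a median of -1.68 against 0.02 for all genes, and of all genes 8.54% passed, 3.23% as lower and 5.3% as higher. Members just inside the choice were Kif26b at -1.63 and Syndig1l at -1.53. The next named genes were Nrl (-1.59) and Opn1sw (-1.49), whose pools overlapped, and then Nr1d1 (-1.46), a repressor of the circadian clock whose pools did not overlap.

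**Figure D1:**
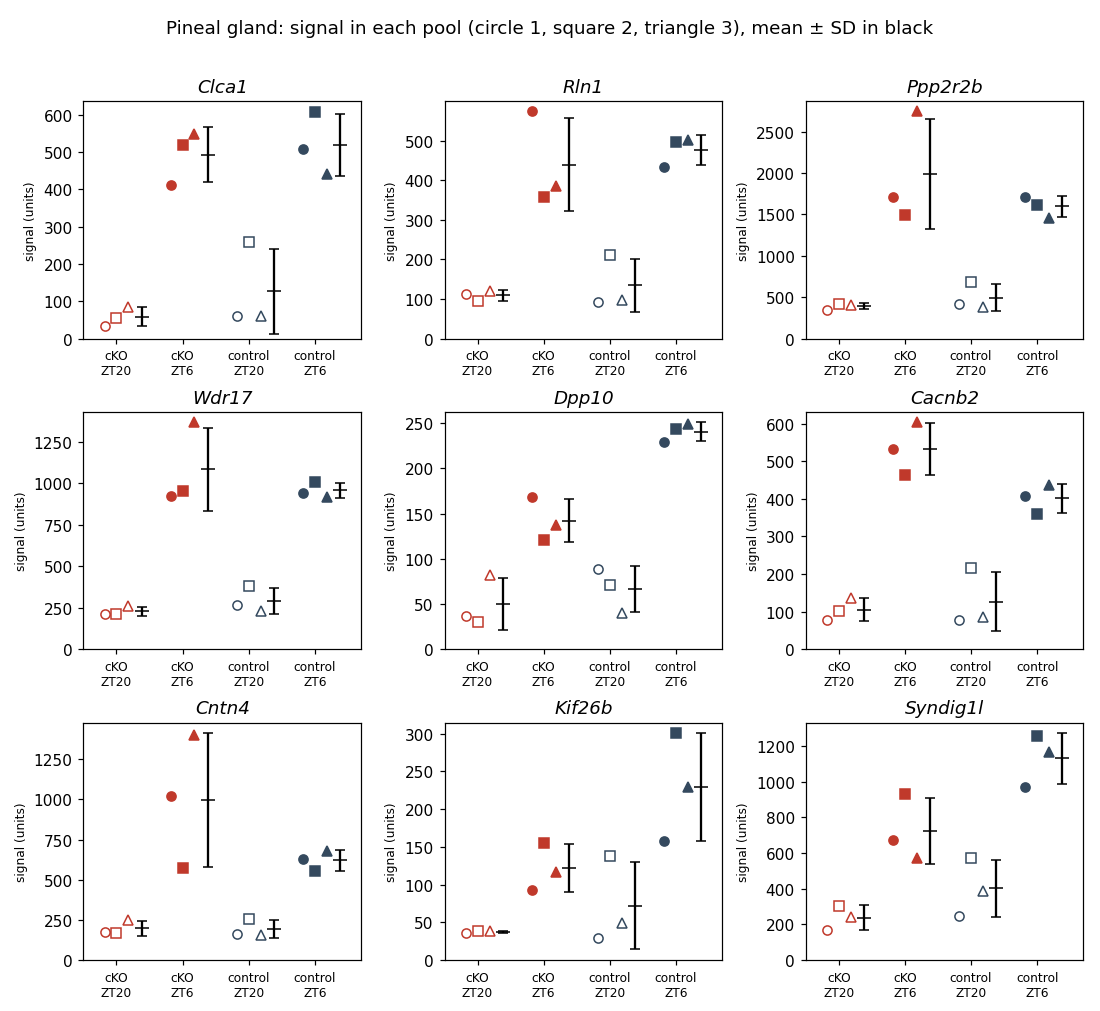
Signal (units, linear axis from 0) of the 9 genes in the 12 pineal pools. Groups from left to right are cKO at ZT20, cKO at ZT6, control at ZT20 and control at ZT6, open symbols are ZT20, filled ones ZT6, and symbol shapes give pool numbers. Black marks are means ± SD of 3 pools. In every panel the ZT20 pools lie below the ZT6 pools of the same genotype, and in most the open square of control ZT20, pool 2, lies highest of its group.

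Clca1 encodes a secreted protein of the calcium-activated chloride channel regulator family, best known from goblet cells of airway and gut. Its signal was 33.9, 56 and 85.4 units in cKO pineal pools at ZT20, against 410.8, 519.8 and 550 units at ZT6. In control pools it was 60.5, 259.2 and 59.8 units at ZT20 and 507.5, 606.8 and 442.4 units at ZT6. The ZT20 pools were low in both genotypes, with no overlap with ZT6, and control ZT20 pool 2 stood apart above the other pools of its group. The mean at ZT20 was 11.8% of that at ZT6 in cKO and 24.4% in control. The fall in cKO was -2.82 ± 0.25 (limma, adjusted p = 2.55e-19). A second probe set of the gene was dim throughout, at 0.5 to 19.2 units, and showed no separation of the groups. Of the 6 other genes of the family on the array, 0 were bright enough to be tested in either tissue.

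Rln1 encodes relaxin, a peptide hormone of the insulin and relaxin family. It read 113.2, 94.4 and 121.5 units in cKO pineal pools at ZT20 and 574.3, 357.2 and 386 units at ZT6. Control pools had 93.4, 211.9 and 98 units at ZT20 and 433.8, 495.6 and 501 units at ZT6. Day and night pools were separate in each genotype, while cKO and control overlapped at each time. The cKO mean at ZT20 was 25% of that at ZT6, a fall of -1.83 ± 0.23 (limma, adjusted p = 3.93e-11), and the control mean was 28.2%. In the retina the 12 arrays read 3.1 to 19.3 units, far below every array median. Of its family 4 other peptides and receptors were on the array, and 0 were bright enough to be tested in the pineal gland.

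Ppp2r2b encodes a brain-rich B regulatory subunit of protein phosphatase PP2A, which sets the enzyme's targets. In cKO pineal pools the signal was 346.6, 412.3 and 411.3 units at ZT20 and 1715.9, 1498.8 and 2747.1 units at ZT6. Control pools had 416.6, 681.6 and 381.6 units at ZT20 and 1713.4, 1619.6 and 1456.4 units at ZT6. All ZT6 pools stood above all ZT20 pools, whichever the genotype. In cKO the fall was -2.26 ± 0.20 (limma, adjusted p = 6.64e-20), to 19.6% of the day mean, and the control mean at ZT20 was 30.9% of that at ZT6. A second probe set was dim in the pineal gland, at 6.5 to 99.1 units, and its ZT20 and ZT6 pools overlapped in both genotypes. Of 15 other PP2A subunits tested in cKO pineal gland 1 fell and 0 rose: Ppp2r5e, a subunit of the B56 class (-0.57 ± 0.19, adjusted p = 0.029). Their median was -0.08.

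Cacnb2 and Dpp10 are auxiliary subunits of ion channels. Cacnb2 encodes a beta subunit of voltage-gated calcium channels that carries the pore to the membrane and is needed at photoreceptor synapses. It read 76.9, 101.3 and 137.4 units in cKO pineal pools at ZT20 and 531.3, 462.6 and 603 units at ZT6. In control pools the values were 77.5, 216.5 and 84.8 units at ZT20 and 407, 359.2 and 436.2 units at ZT6. Night pools were lower in both genotypes without overlap, and all 3 cKO day pools exceeded the 3 control day pools. The cKO fall measured -2.20 ± 0.23 (limma, adjusted p = 1.42e-14), to 19.8% of the day mean, and the control mean at ZT20 was 31.5% of that at ZT6. The second probe set gave 25.8, 31.7 and 59.6 units at ZT20 and 130.8, 104.2 and 182.5 units at ZT6 in cKO, again with no overlap. Of 11 other calcium channel subunits tested in cKO pineal gland 0 passed in either direction, and their median of -0.16 lay close to that of all genes.

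Dpp10 encodes a peptidase-like protein without enzyme activity that binds Kv4 potassium channels and speeds their gating. Its signal was 37.3, 29.7 and 82.6 units in cKO pineal pools at ZT20 and 167.8, 121 and 137.3 units at ZT6. Control pools had 89.2, 71.4 and 39.8 units at ZT20 and 228.9, 243.7 and 248.8 units at ZT6. These signals were low for the array: the ZT20 pools were below the array median in all 6 cases, and the cKO day pools lay below the control day pools. The log2 change in cKO was -1.34 ± 0.26 (limma, adjusted p = 5.67e-05), to 35.1% of the day mean, against 27.8% in control. A second probe set fell too, to 20.5 to 30.6 units at ZT20 against 74.2 to 95.9 units at ZT6 in cKO. Among 4 other Kv4 channel genes tested, Kcnd3, a pore subunit, passed as lower with a small change (-0.23 ± 0.08, adjusted p = 0.0426), and 0 rose. Among 6 relatives of the peptidase family Dpp4, a cell surface peptidase, fell by 1.01 ± 0.18 on the log2 scale (limma, adjusted p = 9.63e-06) and 0 rose. Dpp4 averaged 806.4 ± 163 units in cKO pineal gland at ZT20 and 1628 ± 120 units at ZT6 (SD, n = 3 pools each).

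Cntn4 and Syndig1l encode proteins of neuronal contacts. Cntn4 is contactin 4, an immunoglobulin-type adhesion molecule anchored to the membrane by a lipid, with a role in wiring of retinal ganglion cells. It read 175.7, 166.9 and 247.9 units in cKO pineal pools at ZT20 and 1019.5, 570.3 and 1402.4 units at ZT6. Control pools had 163.5, 254.6 and 154.9 units at ZT20 and 628.1, 552 and 680.8 units at ZT6. The cKO day pools were the most unequal of any group of the gene, though all stood well above the night pools. For cKO the fall was -2.18 ± 0.21 (limma, adjusted p = 2.3e-16), to 19.7% of the day mean, and the control mean at ZT20 was 30.8% of that at ZT6. A second, dim probe set (17.5 to 59.4 units in the pineal gland) overlapped between day and night in cKO. Of 3 other contactins and partners tested in cKO pineal gland 1 fell, Cntn1 (-0.27 ± 0.08, adjusted p = 0.017), and 0 rose.

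Syndig1l belongs to the SynDIG family, membrane proteins whose founding member is linked to AMPA receptors. It had 169, 303.6 and 242.3 units in cKO pineal pools at ZT20 and 673.8, 930.6 and 571.2 units at ZT6. In control pools it had 247, 568.9 and 386.6 units at ZT20 and 971.9, 1255.3 and 1163.1 units at ZT6. Night pools were low in each genotype, and every cKO day pool lay below every control day pool. Its fall in cKO was -1.55 ± 0.21 (limma, adjusted p = 9.46e-10), to 32.9% of the day mean, close to the 35.5% of control. A second probe set gave 98.9 to 268 units at ZT20 and 417.2 to 654 units at ZT6 in cKO. Of 4 other SynDIG and AMPA receptor genes tested, the receptor subunit Gria1 fell (-0.48 ± 0.17, adjusted p = 0.0427) and 0 rose.

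Kif26b encodes an atypical kinesin that acts downstream of WNT5A and its ROR receptors. Its signal was 36.1, 37.9 and 38.2 units in cKO pineal pools at ZT20 and 93.4, 155.3 and 117.1 units at ZT6. Control pools had 29.6, 137.8 and 49.1 units at ZT20 and 157.5, 300.3 and 228.9 units at ZT6. It was the dimmest member in relation to the array, above the array median on 4 of 12 pineal arrays, of which 3 were control day pools. The change in cKO was -1.34 ± 0.28 (limma, adjusted p = 1.26e-04), to 30.7% of the day mean. Kif26b reached this test mainly through the control day pools, where it was chosen, so the call is a description. The control mean at ZT20 was 31.5% of that at ZT6. Of 8 other genes of the WNT5A and ROR pathway tested in cKO pineal gland 0 passed in either direction, among them Dvl1, a Dishevelled adaptor of Wnt signalling, at -0.04 ± 0.11.

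Wdr17 encodes a WD-repeat protein. Its signal was 214.2, 212 and 258.7 units in cKO pineal pools at ZT20 and 924.2, 953 and 1370.7 units at ZT6. Control pools had 264.1, 380.5 and 231.5 units at ZT20 and 941.5, 1008 and 919.9 units at ZT6. Groups of one time overlapped between genotypes and groups of one genotype did not overlap between times. The fall in cKO was -2.15 ± 0.20 (limma, adjusted p = 6.43e-18), to 21.1% of the day mean, and the control mean at ZT20 was 30.5% of that at ZT6. The second probe set had the same pattern at a lower signal, 22.7 to 34.8 units at ZT20 and 73.1 to 116.1 units at ZT6 in cKO.

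Signals of marker lists stood beside these falls. Photoreceptors and pinealocytes share many genes, and Otx2 is on both the pinealocyte and the choroid plexus list. A list therefore does not tell which cells its signal came from. Of the pinealocyte list 2 of 8 tested genes were higher and 3 lower at ZT20 in cKO pineal gland. Of the rod and cone list 3 of 6 tested genes were lower at ZT20 in cKO pineal gland and 0 higher, and the summed signal of its 8 genes on the array was 8235.4 to 9798.6 units at ZT20 and 12128.3 to 14398.7 units at ZT6. Gnat1 read 151, 447.1 and 620.5 units at ZT20 and 114.9, 76.9 and 2233.7 units at ZT6, with cKO ZT6 pool 3 far above the other pools. Without cKO ZT6 pool 3 all 9 genes still passed, with changes from -1.35 to -2.74. Of the choroid plexus list 2 of 8 genes were lower at ZT20 in cKO and 0 higher. Its sums were 34929.8 to 46184.9 units at ZT20 and 44830.3 to 49776.3 units at ZT6. In control pineal gland 4 of 6 rod and cone genes and 4 of 5 neutrophil and marrow genes were lower at ZT20. Of either list 0 were higher there, while 2 of 8 choroid plexus genes were higher and 0 lower. In cKO 2 of 5 neutrophil and marrow genes were higher and 0 lower. The part of these lists in the falls was not tested. With cKO ZT20 pool 1 as the only night pool all 9 genes passed as well, from -1.38 to -3.34. In pools of whole organs, fewer cells of a type and less RNA per cell cannot be told apart.

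**Figure D2:**
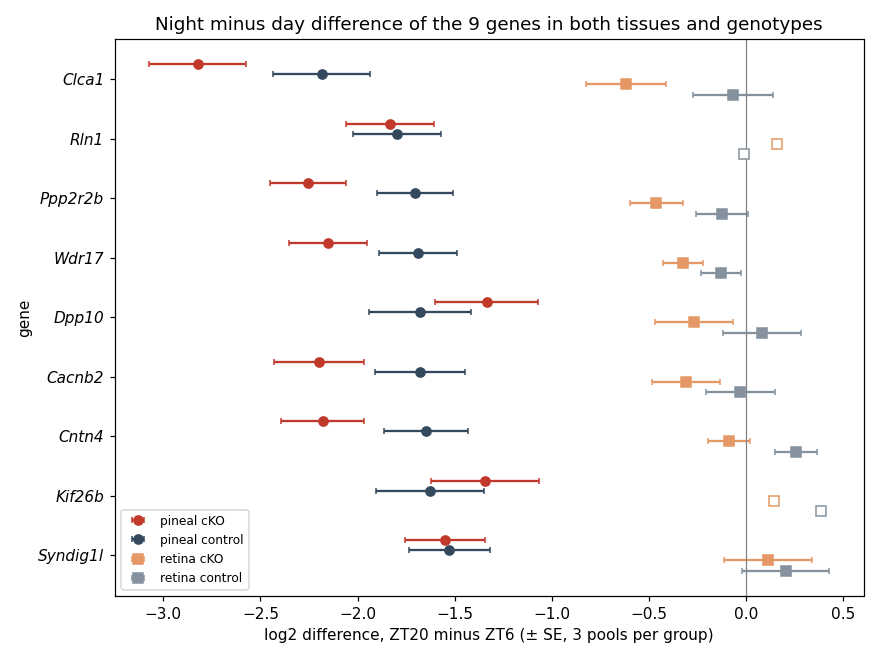
Log2 difference ZT20 minus ZT6 (x axis) of each gene (y axis) in cKO and control pineal gland (circles) and cKO and control retina (squares). Bars are ± SE with 3 pools per group, and open squares mark Rln1 and Kif26b, which were too dim in the retina to be tested. Pineal differences lie between -1.34 and -2.82 and retinal ones between -0.62 and 0.39.

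The likeness of the 9 genes from pool to pool was described pair by pair, and was not computed for pairs of other genes. Deviations of single pools from their group means, taken over the 12 pineal arrays, had a median pairwise Pearson r of 0.55 over 36 pairs of genes, with a range of -0.21 to 0.92. These pools share array and RNA amplification, so this is a description. Control ZT20 pool 2 was the highest of its group in 8 of the 9 genes and Dpp10 was the exception. Its array median was also the highest of the group, at 156.4 units against 132.3 and 145.4 units. The share of all genes that were highest in this pool was not counted. In control ZT20 pool 2 Clca1 was at 50% of the control day mean, against 11.7 and 11.5% in pools 1 and 3. Cacnb2 was at 54%, against 19.3 and 21.2%. The night transcripts in that pool were the lowest of the control night pools: Aanat read 3549 units, against 4714.6 and 5602.2 units, and Gng4, a G protein gamma subunit transcript, read 1194.7 units, against 2671.1 and 3219.3 units. Its part in the falls of control glands was not tested, and the tests in cKO pineal gland take only their estimate of spread from it. As a percentage of the day mean, the 3 night pools spanned a narrower range in cKO than in control for 8 of the 9 genes. The same control pool 2 widens the control range, and control values chose the genes. The share of all genes with a narrower range in cKO was not counted, so this is a description. Dpp10 was the exception, with 26.3, 20.9 and 58.2% in cKO against 37.1, 29.7 and 16.6% in control. In cKO Clca1 lay at 6.87, 11.3 and 17.3% of the day mean and Wdr17 at 19.8, 19.6 and 23.9%.

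**Figure D3:**
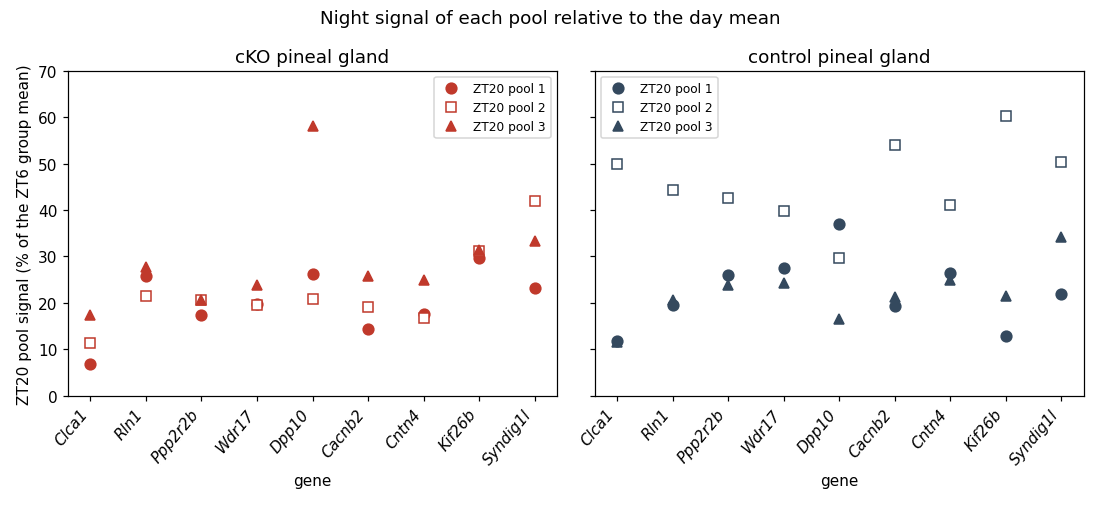
Signal of each ZT20 pineal pool as a percentage (y axis) of the ZT6 mean of the same genotype, for each gene (x axis), in cKO on the left and control on the right. Open squares are pool 2. In control, pool 2 lies above pools 1 and 3 for every gene other than Dpp10, at 39.8 to 60.2%.

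The falls of the 2 genotypes are given side by side and their difference was not tested, since it contains the values that chose the genes. The fall in cKO exceeded that in control by 0.64 for Clca1, 0.55 for Ppp2r2b, 0.53 for Cntn4, 0.52 for Cacnb2 and 0.46 for Wdr17 on the log2 scale. It was smaller by 0.34 for Dpp10 and 0.28 for Kif26b, and within 0.04 for Rln1 and Syndig1l. The median of this difference over all 11936 genes was -0.17.

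Averaged over ZT20 and ZT6, the pineal level of 2 of the 9 genes was lower in cKO than in control and 0 were higher, against 2.84 and 0.327% of all genes tested (3.17% in all, 339 lower and 39 higher). After median centring 170 genes were lower and 5014 higher, and after quantile normalisation 137 and 58. The control arrays of this comparison chose the genes, so its calls on the 9 genes are descriptions. Syndig1l was lower by -0.66 ± 0.15 (limma, adjusted p = 0.00146), with means of 481.8 units in cKO and 765.5 units in control. Kif26b was lower by -0.67 ± 0.20 (limma, adjusted p = 0.0318), with means of 79.67 and 150.5 units in cKO and control. The day pools of both genes did not overlap between genotypes and the night pools did. The control day pools chose the genes and the share of all genes without overlap was not counted, so this is a description. For Kif26b there is a further reason: 3 of the 4 pineal arrays above the array median were control day pools. That is the group in which it is high and was chosen, and it met the filter mainly through them. Without the cKO ZT20 pools that kept Neurod1 signal, Syndig1l was at -0.87 (adjusted p = 9.07e-04) and Kif26b at -0.69 (adjusted p = 0.0808). The Kif26b call ended under 14 of 22 other settings and, without control ZT20 pool 2, its value was -0.42 (adjusted p = 0.422). Without control ZT6 pool 2, control ZT6 pool 3, cKO ZT6 pool 1, cKO ZT6 pool 3, cKO ZT20 pool 2 or cKO ZT20 pool 3 its adjusted p was 0.178, 0.0778, 0.0965, 0.0545, 0.0509 and 0.0709. Syndig1l passed without any single pool, and its call ended on quantile-normalised values (-0.53, adjusted p = 0.0873), with trimmed-mean scaling (0.056), with no filter (0.0951) and with no variance trend (0.102).

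Dpp10 was at -0.54 ± 0.19 in this comparison and did not pass (limma, adjusted p = 0.102). Its day pools were lower in cKO without overlap, which is a description too, since the control day pools chose the gene. It passed without control ZT20 pool 3 (-0.67, adjusted p = 0.0333) or cKO ZT20 pool 3 (-0.70, adjusted p = 0.0158). Clca1 was at -0.39 ± 0.18 (adjusted p = 0.303), and passed without control ZT20 pool 1 (-0.54, adjusted p = 0.0226). Cntn4 was at 0.32 ± 0.15 (adjusted p = 0.352) and Cacnb2 at 0.13 ± 0.16 (adjusted p = 0.924). After median centring, which moves the median of all genes to 0.20 from -0.06, Cntn4 passed as higher (0.58, adjusted p = 0.00877) and Cacnb2 also lay higher. Rln1, Ppp2r2b and Wdr17 were between -0.16 and -0.01 with intervals that include 0, and turned to between 0.10 and 0.25 after median centring. In the 7 family lists with a tested gene 1 other gene passed, Gria3, an AMPA receptor subunit, which was lower (-0.49 ± 0.14, adjusted p = 0.0335). Of marker lists in the same comparison 6 of 8 choroid plexus genes were higher, and 4 of 8 fibroblast and meninges genes, 4 of 8 microglia genes, 4 of 5 mast cell genes and 4 of 5 neutrophil genes were lower. The summed fibroblast signal was 22995.6 to 34803.8 units in cKO and 27159 to 40542.4 units in control, and its part in the values of Kif26b and Syndig1l was not tested.

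**Figure D4:**
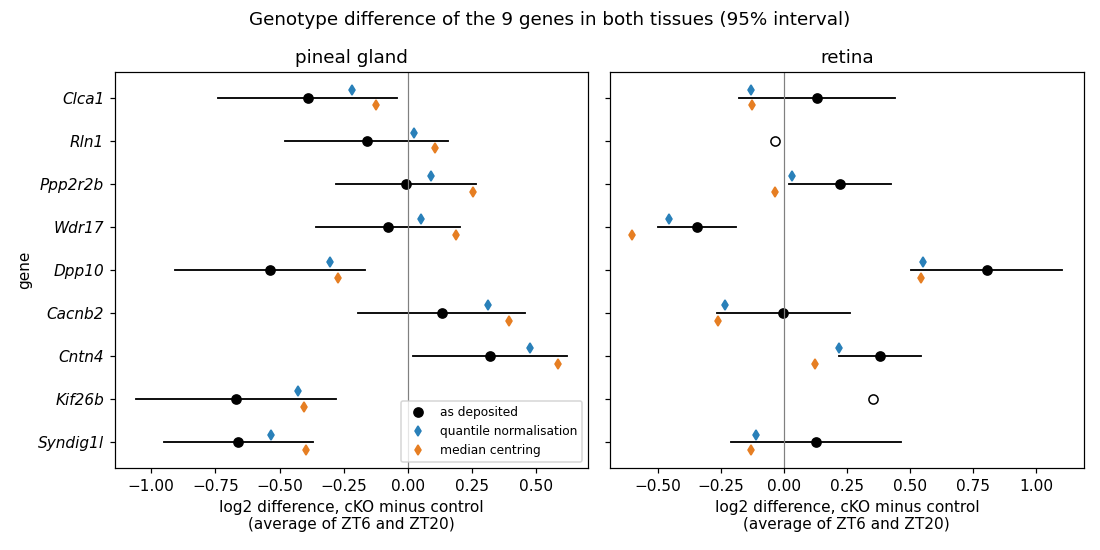
Log2 difference cKO minus control (x axis), averaged over ZT6 and ZT20, for each gene (y axis) in the pineal gland on the left and the retina on the right. Black points with bars are values as deposited with 95% intervals, diamonds are values after quantile normalisation (blue) and median centring (orange), and open circles were too dim to be tested. Syndig1l and Kif26b lie lowest in the pineal gland, and Dpp10 lies highest in the retina at 0.80.

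In the retina no member passed between ZT20 and ZT6, though few genes of any kind did. Of the 7 genes bright enough to be tested in control retina 0 passed between ZT20 and ZT6, where 16 of 11693 genes or 0.137% passed at all (0.0342% lower and 0.103% higher) and 1319 had an unadjusted p under the same limit. Their differences ran from -0.13 for Wdr17 to 0.26 for Cntn4, and ZT20 pools lay wholly below ZT6 pools for 0 of the 9 genes, against 3.12% of all genes. For Cntn4 they lay wholly above, at 2739.9 to 3106 units against 2195.9 to 2621.1 units. Its interval was 0.03 to 0.49 (limma, adjusted p = 0.367), and its second probe set overlapped between the times. The share of all genes that lay wholly above was not counted. The interval of the control retinal difference was -0.50 to 0.37 for Clca1 and -0.35 to 0.09 for Wdr17. In cKO retina 0 of 7 passed too, where 6 genes or 0.0513% passed (0.0257% lower and 0.0257% higher) and 479 had an unadjusted p under the limit. There Clca1 read 282.6, 233.2 and 357.2 units at ZT20 and 383.9, 473.2 and 497.6 units at ZT6, a difference of -0.62 ± 0.21 (limma, adjusted p = 0.783). Ppp2r2b read 2099, 1783.5 and 1959.9 units at ZT20 and 2700.9, 2890.1 and 2466.7 units at ZT6, a difference of -0.46 ± 0.14 (limma, adjusted p = 0.592). In these 2 genes the night pools lay wholly below the day pools, which 6.1% of all genes did in cKO retina, and the intervals of -1.05 to -0.18 and -0.75 to -0.17 did not include 0. Wdr17 was at -0.32, with an interval of -0.54 to -0.11 and overlapping pools. Its second probe set did not overlap, at 411.7 to 537.6 units at ZT20 and 605.4 to 1019.6 units at ZT6. The second probe sets of Clca1, Ppp2r2b, Dpp10, Cacnb2, Cntn4 and Syndig1l overlapped in cKO retina. With cKO ZT20 pool 1 as the only night pool the cKO retinal differences were -0.64 for Clca1, -0.35 for Ppp2r2b and -0.47 for Wdr17, and 0 genes of the 7 passed.

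**Figure D5:**
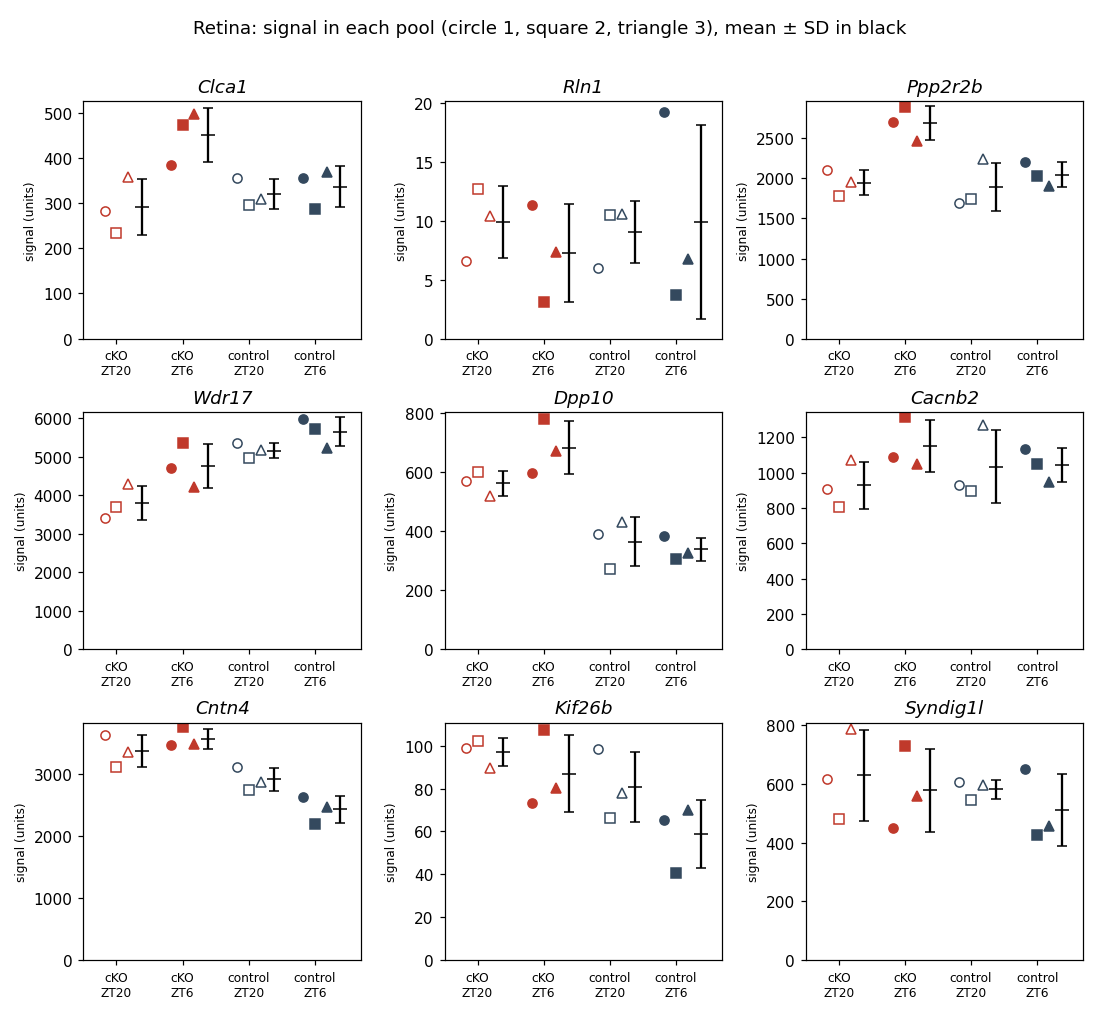
Signal (units, linear axis from 0) of the 9 genes in the 12 retinal pools. Groups from left to right are cKO at ZT20, cKO at ZT6, control at ZT20 and control at ZT6, with symbols as for the pineal pools and means ± SD of 3 pools in black. Every cKO pool of Dpp10 lies above every control pool, and Rln1 lies at 19.3 units or less.

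The difference between tissues was tested in cKO, with all 24 arrays. The night fall was larger in the pineal gland than in the retina for 7 of the 9 genes, against 0.404% of 12881 genes that passed in this direction. Of all genes 1.12% passed in either direction and 0.714% with a more positive difference in the pineal gland. The differences, pineal minus retina, were -2.21 ± 0.45 for Clca1 (limma, adjusted p = 0.00681), -2.10 ± 0.31 for Cntn4 (adjusted p = 1.44e-04) and -1.99 ± 0.37 for Rln1 (adjusted p = 0.00331). They were -1.89 ± 0.35 for Cacnb2 (adjusted p = 0.00257), -1.83 ± 0.23 for Wdr17 (adjusted p = 2.17e-05), -1.80 ± 0.27 for Ppp2r2b (adjusted p = 2.31e-04) and -1.67 ± 0.36 for Syndig1l (adjusted p = 0.0125). Kif26b at -1.49 ± 0.43 (adjusted p = 0.0934) and Dpp10 at -1.07 ± 0.35 (adjusted p = 0.188) did not pass. For Rln1 the retinal term is a difference between signals of 3.1 to 12.7 units. Rln1 and Kif26b lay below the array median on all 12 retinal arrays. They reached this test only through the pineal arrays, so their values and calls here are descriptions. With 1 cKO ZT20 pool left in each tissue, without those that kept Neurod1 signal, 4 of the 9 passed, and Clca1 was at -2.70 (adjusted p = 0.0511), Syndig1l at -2.09 (0.0523) and Rln1 at -1.76 (0.182). Without cKO pineal ZT6 pool 2 or ZT20 pool 1 the Syndig1l call ended (adjusted p = 0.053 and 0.0568), and without cKO pineal ZT20 pool 3 Dpp10 passed (-1.40, adjusted p = 0.0201).

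The order of levels across groups differed between members. Wdr17, Cntn4 and Cacnb2 were lower in every pineal pool than in every retinal pool, at 212 to 1370.7 against 3421.2 to 5989.7 units for Wdr17, 154.9 to 1402.4 against 2195.9 to 3742.4 units for Cntn4 and 76.9 to 603 against 806.6 to 1317.4 units for Cacnb2. Dpp10 had 29.7 to 248.8 units in pineal pools and 272.4 to 778.5 units in retinal pools. For Clca1 and Syndig1l the retina lay between day and night of the pineal gland: the control pineal day mean was highest and the cKO pineal night mean lowest. Syndig1l averaged 1130 ± 145 units in control pineal gland at ZT6 and 511.6 to 629.2 units in the 4 retinal groups, which overlapped each other. Kif26b was highest in control pineal gland at ZT6, and its retinal pools read 40.5 to 107.4 units, below the array median on all 12 retinal arrays. Ppp2r2b in cKO retina at ZT6 averaged 2686 ± 212 units and stood above the next group, control retina at ZT6 with 2045 ± 154 units, without overlap. One cKO pineal day pool, at 2747.1 units, lay within its range, and control pineal gland at ZT6, with 1456.4 to 1713.4 units, overlapped control retina at ZT20 alone among the retinal groups.

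Averaged over both times, 3 of the 7 genes tested differed between genotypes in the retina, 2 higher and 1 lower in cKO, against 27.9% of genes higher and 2.33% lower (30.2% in all, 3263 and 272 genes). After median centring 1104 genes were higher and 1808 lower, and after quantile normalisation 1590 and 1396. Dpp10 read 568.4, 602 and 517.7 units at ZT20 and 597.7, 778.5 and 672.8 units at ZT6 in cKO, against 389.4, 272.4 and 431 units at ZT20 and 383, 304.6 and 327.4 units at ZT6 in control. All 6 cKO pools were above all 6 control pools, a difference of 0.80 ± 0.14 (limma, adjusted p = 5.58e-04), and it passed under every alternative tried, from 0.54 to 0.87. Cntn4 averaged 3460 units in cKO and 2665 units in control (0.38 ± 0.08, adjusted p = 0.00155). Wdr17 averaged 4290 units in cKO and 5410 units in control (-0.35 ± 0.07, adjusted p = 0.00226). Without the cKO ZT20 pools that kept Neurod1 signal these 3 calls held, at 0.81 for Dpp10, 0.44 for Cntn4 and -0.42 for Wdr17. The median of all genes in this comparison was 0.20, and it was -0.06 after median centring, where Cntn4 did not pass (0.12, adjusted p = 0.319), Wdr17 was lower by -0.61 and Cacnb2 passed as lower (-0.26, adjusted p = 0.0254). Quantile normalisation also made the Cacnb2 fall pass (-0.23, adjusted p = 0.0401). With the mean of all probe sets of a gene, the calls on Wdr17 (-0.26, adjusted p = 0.0807) and Cntn4 (0.31, adjusted p = 0.0539) ended. Ppp2r2b was at 0.22 ± 0.10 (adjusted p = 0.0895) and passed without control ZT20 pool 3 (0.28, adjusted p = 0.0274).

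Marker lists moved in the retina as well. Of microglia and macrophage genes 6 of 6 tested were higher in cKO retina, with sums of 3395.9 to 5767.6 units in cKO and 1016.8 to 1660.5 units in control. Of rod and cone genes 5 of 8 were lower and 1 higher in cKO, with sums of 38747.3 to 47732.6 units in cKO and 43966 to 56010.4 units in control. Their part in the values of Dpp10, Cntn4 and Wdr17 was not tested. The family lists are read beside the 27.9% of all genes that were higher in this comparison, a share that depended on the scaling. Of the contactin list 7 of 9 tested genes were higher in cKO retina and 0 lower, led by Cntn2 (0.73 ± 0.16) and Cntn1 (0.65 ± 0.08). Of calcium channel subunits 6 of 15 were higher and 1 lower, Cacna1f, the pore of the photoreceptor channel (-0.53 ± 0.15, adjusted p = 0.0135). Of PP2A subunits 5 of 14 were higher and 0 lower, and of Kv4 channel genes 2 of 8, including Kcnd3 (0.29 ± 0.06). Wnt5a (1.33 ± 0.17) and Kif26a (0.44 ± 0.15) were higher among 5 tested genes of that pathway, and Gria1 (0.86 ± 0.16) was one of 2 higher among 5 SynDIG and AMPA receptor genes. Insl5, of the relaxin family, was lower (-0.73 ± 0.21, adjusted p = 0.0143).

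Outside the 9 genes, the likeness of every other named gene to their pattern was measured by Pearson r with the mean of their standardised log2 values over the 12 pineal arrays. The most alike were Riox2 (r = 0.99), Setdb2 (0.98), Memo1 (0.98), Isl2 (0.98) and Igsf11 (0.97). Riox2, a ribosomal oxygenase, averaged 1188 ± 152 units at ZT20 and 2663 ± 260 units at ZT6 in cKO, and 1337 ± 214 units at ZT20 and 2618 ± 169 units at ZT6 in control (SD, n = 3 pools each). Isl2, a LIM homeobox factor, averaged 655.4 ± 185 and 2010 ± 114 units in cKO at ZT20 and ZT6, and 774.4 ± 345 and 1876 ± 210 units in control at ZT20 and ZT6. The most opposite were Fam163b (-0.98), E2f8 (-0.98) and Padi1 (-0.98). E2f8, an atypical E2F repressor of the cell cycle, averaged 1613 ± 255 units at ZT20 and 71.4 ± 21.5 units at ZT6 in cKO, and 1471 ± 589 and 79.53 ± 7.91 units in control. These genes were picked for their likeness over arrays that include the control pools, so their values are a description.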

How the data were processed

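RNA of 24 pools, 3 for each of 8 groups of tissue, genotype and time, was measured on 1-colour arrays. Each array's table, as deposited, gives 1 intensity on a linear scale for each of 45101 probe sets. The submitters' processing notes name GCOS. Its version, the scaling of arrays and any detection calls are not given in the sources used here. Intensities were used as the authors deposited them, with no further normalisation.

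Platform annotation named 34945 probe sets by 1 symbol. The set with the highest mean over all arrays stood for a gene, avoiding suffix _x_at. Signals were taken as log2(value + 16), which understates changes of dim genes. A gene was tested if above the array median on at least 3 arrays of a fit. limma 3.58.1 (R 4.3.3; lmFit, eBayes with a mean-variance trend) was fitted to the 12 arrays of a tissue or to all 24. P-values are two-sided, Benjamini-Hochberg adjusted over all genes tested. The pineal fit had 154.4 prior degrees of freedom beside 8 residual ones, so the spread behind its p-values comes mostly from the common trend over genes. An exact permutation test of 3 pools against 3 cannot give a p under 0.1. Labels do not say whether pool numbers are shared. Within a tissue, same-numbered pools correlated at -0.53 to 0.41 in their deviations, and they were not treated as pairs. Same-numbered pools of pineal gland and retina were not compared, though cKO ZT20 pools 2 and 3 kept Neurod1 signal in both. The main test between tissues takes all pools as independent. Figures were drawn with matplotlib 3.10.9 in Python 3.11.15.

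The members, the family and marker lists, the motifs and the tests were chosen with earlier results of these data known. Named beside the 9 genes and Neurod1 are the next genes by fall, up to 3 called genes of a family list (or up to 2 bright ones where none passed), and the 5 most alike and 3 most opposite genes, passing over clones, predicted and sex-linked genes. Gnat1, Tph1, Aanat and Gng4 were added with their values seen. Alternatives were 3 array scalings, pseudocounts of 1 and 64, no filter, no variance trend, the mean of a gene's probe sets, the pool number as a block, leaving out each pool, and leaving out cKO ZT20 pools 2 and 3. The number of arrays limits the precision.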

Additional observations from a re-analysis of the deposited data

Results flagged for a closer look

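The night to day difference in cKO mice differed between pineal gland and retina, by the test of the difference itself, for 7 of the 9 genes. Pineal minus retina, on the log2 scale, it was -2.21 for Clca1, -2.10 for Cntn4, -1.99 for Rln1, -1.89 for Cacnb2, -1.83 for Wdr17, -1.80 for Ppp2r2b and -1.67 for Syndig1l. The retinal signal of Rln1 was 3.1 to 19.3 units on all 12 arrays, so its value comes from the pineal gland and its call is a description. Without the cKO ZT20 pools 2 and 3, which kept Neurod1 signal, 1 pool was left in that group of each tissue. The calls on Cntn4, Cacnb2, Wdr17 and Ppp2r2b then held, and Clca1 was at -2.70, Syndig1l at -2.09 and Rln1 at -1.76 with no call.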

How the results depend on the processing

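The night falls of all 9 genes in cKO pineal gland kept their direction under every alternative that gave a value. That includes the fit that left 1 cKO ZT20 pool. In the other fits the falls passed (limma, adjusted p), and the call on Kif26b is a description. Clca1 and Dpp10 fell below the filter with the mean of probe sets. Of 910 recomputed values of single genes 856 kept direction and call, 30 lost a call, 9 gained one, 15 moved by more than their SE without a call, and 0 turned sign with a call; 42 values without a call turned sign (adjusted p of 0.146 or more). The causes were not tested. The number of genes passing in cKO pineal gland between ZT20 and ZT6 was 1373, and 2175 with quantile normalisation, 2184 with trimmed-mean scaling, 858 with no filter, 824 with no variance trend, 890 with the mean of probe sets and 2960 without cKO ZT20 pools 2 and 3; leaving out single pools gave 744 (without cKO ZT20 pool 1) to 3226 (without cKO ZT20 pool 3). Between genotypes in the pineal gland 378 passed, against 5184 with median centring, 195 with quantile normalisation, 140 with no filter, 168 with no variance trend, 586 without cKO ZT20 pools 2 and 3, and 194 to 753 without single cKO ZT20 pools (2 and 3). Of the 9 genes 2 passed there, 0 with quantile normalisation, trimmed-mean scaling, no filter or no variance trend, 1 with the mean of probe sets or without cKO ZT20 pools 2 and 3, and 1 to 3 without single pools. In control retina 16 genes passed between ZT20 and ZT6 (93 with median centring, 146 with quantile normalisation, 118 with trimmed-mean scaling, 10 with no filter, 8 with no variance trend, 37 without cKO ZT20 pools 2 and 3, 4 to 11 without single pools), and in cKO retina 6 (26, 38 and 29 with these scalings, 10 with pseudocount 64, 3 with no variance trend, 1 to 10 without single pools), with 0 of the 9 genes throughout. Higher and lower calls were 12 and 4 in control retina, 82 and 64 after quantile normalisation and 69 and 49 after trimmed-mean scaling, and in cKO retina 3 and 3, 8 and 18 after median centring, 15 and 23 after quantile normalisation and 9 and 20 after trimmed-mean scaling. With trimmed-mean scaling 981 genes were higher and 1203 lower at ZT20 in cKO pineal gland, and 1743 higher and 1227 lower in cKO retina than in control. Between genotypes in the retina 3535 genes passed, and 2183 to 4344 without single pools (cKO ZT20 pools 1 and 2); of the 9 genes 3 passed, and 1 with the mean of probe sets. For the cKO difference between tissues 144 genes passed, 325 with median centring, 468 with quantile normalisation, 456 with trimmed-mean scaling, 58 without cKO ZT20 pools 2 and 3, and 95 to 227 without single pineal cKO ZT20 pools (2 and 3). Of the 9 genes 7 passed there, 3 with the mean of probe sets, where Ppp2r2b (-0.95), Cntn4 (-1.02) and Syndig1l (-1.55) did not, and 4 without cKO ZT20 pools 2 and 3. With pseudocount 1 Rln1 did not pass (-2.46, adjusted p = 0.0767), and with trimmed-mean scaling Kif26b passed (-1.44, adjusted p = 0.0459). Calls on these 2 genes between tissues are descriptions, as they reached the test through the pineal gland alone. With the pool number as a replicate block the 6 counts, in the order given here, were 1959, 503, 10, 6, 2939 and 140, and the block changed no call on the 9 genes; every pool correlated best with its own number in 2 of 7 pairs of groups, a hint from the data and not the design. Dim signals limit Rln1, Kif26b and Dpp10, which lay below the array median on many arrays. They limit Clca1 and Cacnb2 at night too, which lay above it on 7 and 8 of 12 pineal arrays, against 8 for Rln1. All cKO ZT20 pineal pools of Clca1 lay below it. The largest member fall in cKO pineal gland was -3.14 with pseudocount 1 and -2.20 with pseudocount 64.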
